A study of Homo sapiens with 12 samples.

Results

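Caco-2 cells given ochratoxin A together with Bacillus subtilis CW14 (the combined group) were compared with untreated Caco-2 cells (the control group). The members were chosen by their labels: the 3 combined and 3 control libraries, 6 of the 12 libraries of the series. Ochratoxin A (OTA) is a toxin made by food moulds, and Caco-2 is a human colon adenocarcinoma line that forms a polarised, enterocyte-like monolayer. Per the labels, all groups grew on transwell inserts for 21 days and were kept in HEPES-buffered saline. Control cells then received nothing further, and combined cells received 15 µmol/L OTA and CW14 bacteria in the apical chamber. The other 6 libraries came from cells given OTA alone or CW14 alone, and they are used here to set the combined values against those of each agent. The title of the series presents CW14 as a probiotic that lessens the barrier damage and toxicity of OTA, so the distance of co-treated cells from the untreated state bears on its question. The exposure time is not given in the sources used here, Caco-2 is a tumour line, and nothing in the labels says that replicates were separate cultures, so p-values measure the spread between these libraries, which may be technical.

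An intestinal epithelial sheet is sealed by tight junctions, in which claudins and occludin span the membrane and ZO proteins such as TJP1 tie them to actin. Such cells answer growth factors, stress and bacterial products with immediate early genes, which are induced within minutes from transcripts that are made and degraded fast. Bacterial products also act through NF-kB to induce chemokines, which recruit neutrophils and lymphocytes. OTA is known to inhibit protein synthesis and to cause DNA and oxidative damage in cells.

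Expression values are FPKM (fragments per transcript length and mapped fragments), and a difference is the mean of the combined group minus the mean of the control on the log2(FPKM + 1) scale, which understates the change of low genes. A gene was called, and is said to have risen or fallen, at an adjusted p under 0.05 in limma, Benjamini-Hochberg over the 12928 genes whose mean reached 1 FPKM. Values after ± are the SD of 3 libraries. Loci are in hg19 as deposited. In bulk RNA, fewer cells of a type and less RNA per cell cannot be told apart.

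Combined replicate 3 stood apart from every other library. Its residual SD in the fit was 0.589, against 0.305 to 0.425 in the other 11. It lay at 83.4 on principal component 1, which held 35.3% of the variance, while the other combined libraries lay at 32.0 and 21.9 and the controls between -33.7 and -26.7. Its relative depth was the lowest, at 0.471 of control replicate 1, against 0.642 and 0.672 in the other combined libraries and 0.911 to 1.58 in the controls. Against the other members of its group, it had more of the transcripts with high GC content (rho = 0.43 across 12148 genes, a description) and fewer of the long ones (rho = -0.21). Results that rest on it are given with and without it.

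The libraries were epithelial by their markers. Of the 15 genes fixed for Caco-2 identity, all but 1 or 2 were at 1 FPKM or more in each control and combined library. Their summed FPKM was 10436 to 11139 in the controls and 11042 to 27796 in the combined group, the highest in combined replicate 3. A large part of these sums was APOA1, described further on. Of the 14 identity genes tested, 3 rose, 2 fell and 9 did neither (12.0% higher and 16.8% lower over all genes). APOA1, CDX2 and VIL1 rose (log2 differences 1.21, 0.63 and 0.43), and KRT20 and CDH17 fell (-1.40 and -0.50). SI, the sucrase-isomaltase of the brush border, was near 0 (0, 0.0624 and 0.145 FPKM in the controls, 0.103, 0.0981 and 0.0701 in the combined group). Of the 21 markers of stromal, immune and endothelial cells, 7 to 9 were listed at 0 in each of these libraries. Their sum was 131 to 162 FPKM in the controls and 118 to 150 in the combined group. Of the 8 of them tested, 2 rose, 1 fell and 5 did neither. CD14 and VIM rose (log2 differences 0.97 and 0.80), and LUM fell (-0.85). Without control replicate 1, VIM, LUM and CDH17 were not called (adjusted p = 0.09998, 0.0729 and 0.0668). PTPRC, the pan-leukocyte marker, was at 0, 0 and 0 FPKM in the controls and 0, 0 and 0 in the combined group.

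Combined cells stayed away from the untreated state in part of the genes, and the largest distances were falls. Of 12928 genes, 3729 were called (28.8%), 1557 higher (12.0%) and 2172 lower (16.8%). The list counts given below are to be read against these shares. All combined libraries lay below all controls in 2953 genes (22.8%) and above them in 2468 (19.1%). Statements below that the libraries of a gene did not overlap are to be read against those 2 shares. Over all genes the median difference was 0.02. With upper-quartile scaling of the libraries, 2113 were called higher and 1793 lower, so the balance of the calls between directions depended on the scaling. Genes shown to lie more than 2-fold from control (limma treat with a log2 bound of 1, adjusted p under 0.05) numbered 198 (1.53%), of which 193 were lower (1.49%) and 5 higher (0.0387%). With upper-quartile scaling these were 149 and 5.

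The share of genes shown to lie near control depended on the pseudocount. For 7762 genes (60.0%), the 95% interval of the difference lay within 2-fold of control, 851 of them called all the same; with a pseudocount of 0.1 FPKM the interval lay within 2-fold for 6171 genes. A further 4968 genes (38.4%) were shown neither to be within 2-fold nor to be beyond it. The 193 genes more than 2-fold lower had a median control level of 64.7 FPKM, against 10.4 FPKM over all genes tested. Among the 1716 genes with a control mean of at least 50 FPKM, 109 were more than 2-fold lower and 0 more than 2-fold higher.

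Between single libraries, combined and control were farther apart than the controls were from each other. The median absolute difference per gene was 0.145 to 0.202 between 2 controls and 0.339 to 0.697 between a control and a combined library. It was 0.339 to 0.411 when combined replicate 3 was left out, against 0.210 between the other 2 combined libraries. Combined replicate 3 lay 0.497 and 0.575 from the other members of its own group, farther than those lay from the controls. The distance of these 2 libraries from the OTA libraries was 0.306 to 0.341 and from the CW14 libraries 0.328 to 0.438. Control and OTA libraries were 0.314 to 0.400 apart, and control and CW14 libraries 0.183 to 0.255. Leaving out combined replicate 3 gave 4226 calls, 1768 higher and 2458 lower, with 2 genes more than 2-fold higher and 191 lower. Leaving out control replicate 1 gave 2265 calls and 125 genes more than 2-fold from control, and fitting these 2 groups by themselves gave 1596 and 114. A count was made over 148 called genes named in the text, without the markers CD14, VIM, LUM, KRT20 and CDH17. Of the 148, 24 were not called without control replicate 1: APOA1, CBS, CDK1, CYCS, DSG2, EPHX1, F11R, HEXA, HIST1H2AC, HIST1H4H, IFITM3, IRAK1, MAGI1, MT2A, MYH9, MYLK, NDUFS8, NSDHL, RPL12, RPL28, RPL30, SULT2A1, TK1 and VIL1. With these 2 groups fitted by themselves, 28 were not called. Those were the genes just listed except CDK1, IFITM3, MT2A and SULT2A1, and in addition CDX2, CXCL2, GINS2, LRRC26, MUC3A, MYL9, RFC2 and TGFBI.

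**Figure D1:**
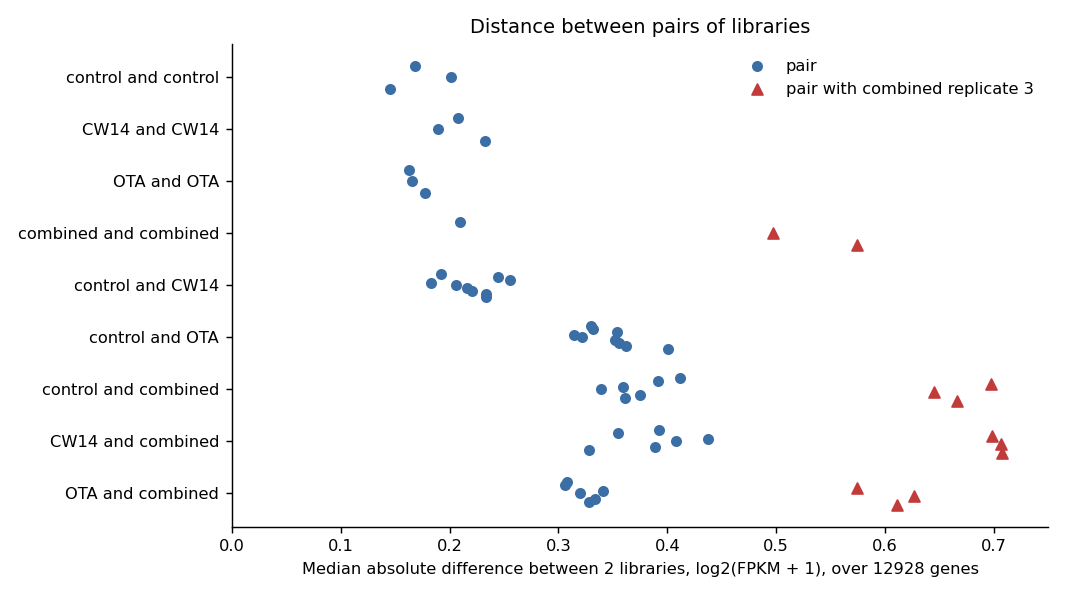
Each point is 1 pair of libraries, and the x axis is the median over 12928 genes of the absolute difference in log2(FPKM + 1). Pairs of a control and a combined library lie at 0.339 to 0.411, or at 0.645 to 0.697 with combined replicate 3 (triangles), all above the control pairs.

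**Figure D2:**
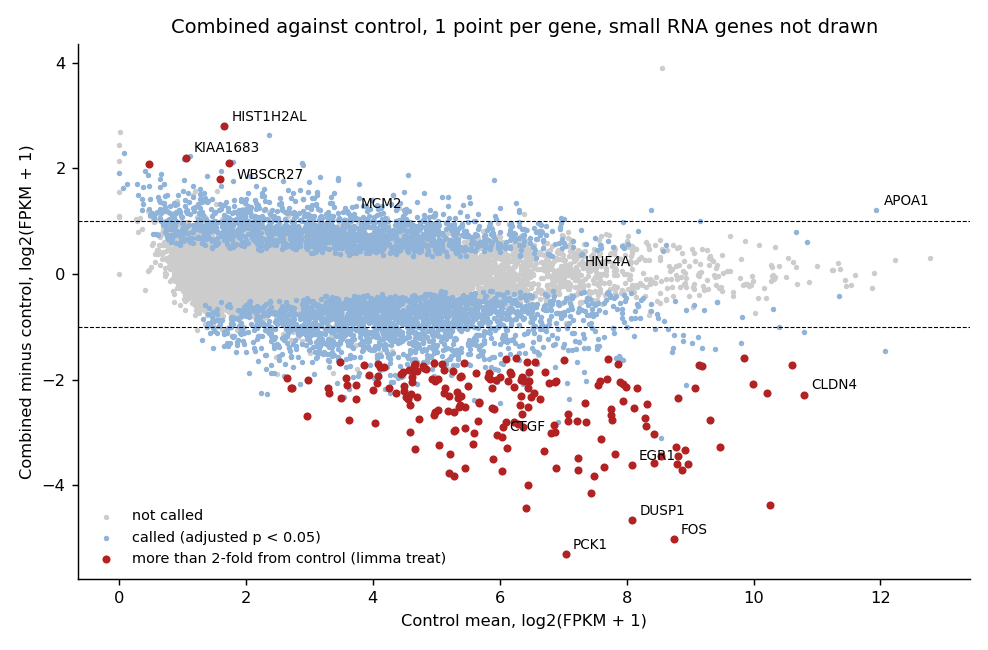
Each point is 1 gene, with the control mean as log2(FPKM + 1) on the x axis and the combined minus control difference on the y axis; dashed lines mark 2-fold. Of the 198 genes shown to lie more than 2-fold from control (red), 193 are below the lower line and 5 above the upper.

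Immediate early transcription factors were among the steepest falls. FOS, a subunit of the AP-1 factor (chromosome 14, 75745479 to 75748937), was at 486, 437 and 358 FPKM in the controls and 12.6, 14.5 and 9.49 FPKM in the combined libraries (log2 difference -5.03, SE 0.21, adjusted p = 1.02e-07). The groups were far apart, with the highest combined library at 14.5 FPKM and the lowest control at 358. FOS was also lower than in cells given OTA alone (53.7 ± 4.88 FPKM, adjusted p = 0.00158) or CW14 alone (124 ± 33.9 FPKM, adjusted p = 1.04e-06). Its partner JUNB was at 523, 496 and 383 FPKM in the controls and 34.0, 34.0 and 34.9 FPKM in the combined libraries (log2 difference -3.72, SE 0.16, adjusted p = 1.02e-07), and the 3 combined values lay within 1 FPKM of each other. EGR1, a zinc-finger factor, was at 281, 281 and 249 FPKM in the controls and 19.7, 24.1 and 19.5 FPKM in the combined libraries (log2 difference -3.62, SE 0.16, adjusted p = 1.02e-07). EGR1 differed little from its level with OTA alone (21.9 ± 4.85 FPKM, log2 difference -0.04, 95% interval -0.39 to 0.31). ATF3, a stress-induced factor, was at 192, 206 and 196 FPKM in the controls and 16.1, 17.2 and 11.8 FPKM in the combined libraries. All combined values of these 4 genes lay below all control values, as in 22.8% of all genes. For FOS, JUNB and ATF3 this was a condition of their selection among the 15 largest falls.

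Of the 29 immediate early genes tested, 0 rose, 28 fell and 1 did neither, with a median difference of -2.80; 19 were more than 2-fold lower. The per-library medians were -2.64, -2.72 and -2.80, so the 3 combined libraries moved alike. FOSB, IER5, CSRNP1 and BTG2, the last an antiproliferative gene, fell (log2 differences -3.68, -3.71, -3.73 and -3.82). The exception was ZFP36L2, an mRNA-decay factor (difference -0.50, adjusted p = 0.174). Medians of the same 29 genes were -2.28 in OTA against control and -0.08 in CW14 against control, contrasts that share the control libraries. Directly against OTA alone, 2070 of all genes were called (16.0%). These became 653 to 945 when an OTA library was left out and 70 when these 2 groups were fitted by themselves. Fitted so and without combined replicate 3, a setting chosen after seeing the data, 2162 were called. Single calls against OTA therefore depended on which libraries were fitted. In the fit of all 12 libraries, 10 of the 29 were lower and 1 was higher (8.22% and 7.79% over all genes). Those lower include JUN (difference -1.53), KLF10 (-0.72) and NR4A1 (-0.60), all transcription factors.

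The promoters of 2 of these genes and of 2 chemokine genes described further on are shown because nearly all immediate early genes fell and because these chemokines are known targets of NF-kB. The windows are the 250 bases before the RefSeq start site (GRCh38.p14), 5′ to 3′ on the strand of the gene. In the first 2, capitals mark the CArG box bound by serum response factor and the core TGACG bound by CREB and ATF factors. In the last 2, capitals mark the kappaB site bound by NF-kB. Both strands were searched.
EGR1: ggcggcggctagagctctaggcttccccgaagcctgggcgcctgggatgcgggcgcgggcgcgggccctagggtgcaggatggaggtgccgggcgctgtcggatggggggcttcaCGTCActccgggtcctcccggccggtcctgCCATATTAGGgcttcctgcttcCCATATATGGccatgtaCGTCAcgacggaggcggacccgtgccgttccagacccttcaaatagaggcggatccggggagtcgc
FOS: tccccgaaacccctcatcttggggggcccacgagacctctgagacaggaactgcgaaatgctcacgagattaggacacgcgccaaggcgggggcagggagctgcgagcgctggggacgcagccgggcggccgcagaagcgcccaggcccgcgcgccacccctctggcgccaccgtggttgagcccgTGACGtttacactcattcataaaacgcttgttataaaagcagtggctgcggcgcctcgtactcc
CXCL2: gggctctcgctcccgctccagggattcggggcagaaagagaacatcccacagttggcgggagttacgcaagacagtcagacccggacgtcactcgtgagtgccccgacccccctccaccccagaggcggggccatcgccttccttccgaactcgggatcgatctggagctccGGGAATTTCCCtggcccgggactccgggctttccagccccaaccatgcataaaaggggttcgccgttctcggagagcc
CCL20: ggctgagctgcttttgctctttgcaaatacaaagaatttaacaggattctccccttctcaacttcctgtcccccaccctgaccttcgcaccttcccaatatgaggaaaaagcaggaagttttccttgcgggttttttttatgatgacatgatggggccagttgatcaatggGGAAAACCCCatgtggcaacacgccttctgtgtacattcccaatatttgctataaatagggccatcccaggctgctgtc
The windows lie at chr5:138465229-138465478 (EGR1, plus strand), chr14:75278578-75278827 (FOS, plus strand), chr4:74099196-74099445 (CXCL2, minus strand) and chr2:227813592-227813841 (CCL20, plus strand). Matches numbered 2 CArG boxes and 2 TGACG sites in EGR1, 0 CArG boxes and 1 TGACG site in FOS, 2 overlapping kappaB matches in CXCL2 and 1 in CCL20. Sites farther than 250 bases from the start were not searched, so the windows do not show that FOS lacks a CArG box. TGACG was found in 16 of the 22 immediate early genes with a window in the table and in 21.2% of all 35116 windows; a CArG box was found in 3 of 22 and in 1.16%. TGACG was also found in 4 of 7 chemokine genes and 9 of 17 NF-kB genes. A kappaB site was found in 5 of 7 chemokine genes, 10 of 17 NF-kB genes and 5 of 22 immediate early genes, and in 9.96% of all windows. A match is a string of letters and not a shown binding site.

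Genes that switch MAP kinase signalling off fell with them. DUSP1, a phosphatase of MAP kinases (chromosome 5, 172195091 to 172198203), was at 279, 272 and 265 FPKM in the controls and 15.0, 10.0 and 6.11 FPKM in the combined libraries (log2 difference -4.66, SE 0.23, adjusted p = 1.33e-07) and was lower than with OTA alone (25.7 ± 2.26 FPKM, adjusted p = 0.00593). TRIB1, a pseudokinase, was at 192, 163 and 164 FPKM in the controls and 11.01, 9.53 and 6.32 FPKM in the combined libraries (log2 difference -4.15, SE 0.21, adjusted p = 1.53e-07). No combined library overlapped a control for either gene, which was a condition of their selection among the 15 largest falls. Of the 19 DUSP, Sprouty and related genes tested, 0 rose, 15 fell and 4 did neither, with a median of -1.53. DUSP5 and DUSP6, phosphatases of ERK, and SPRY2, an inhibitor of receptor signalling, fell (log2 differences -3.41, -2.86 and -2.24).

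PCK1, the rate-limiting enzyme of gluconeogenesis (chromosome 20, 56136135 to 56141513), had the largest fall of the genes named. It was at 173, 129 and 89.6 FPKM in the controls and 1.46, 1.97 and 3.47 FPKM in the combined libraries (log2 difference -5.31, SE 0.29, adjusted p = 2.57e-07), against 9.55 ± 2.29 FPKM with OTA alone (adjusted p = 0.00512 for combined against OTA) and 100.5 ± 28.3 with CW14 alone. All 3 combined values were below 4 FPKM, while the controls ranged over nearly 2-fold among themselves. PDK4, which restrains pyruvate oxidation, also fell (-1.97). The list of 31 glycolysis and gluconeogenesis genes did not move as a whole: 2 rose, 6 fell and 23 did neither, with a median of 0.26.

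Stress genes of several pathways were lower than in untreated cells. The lists share members, so their counts are not separate. ATF3 and BTG2 are also in the immediate early list, PMAIP1 and BBC3 are in both the p53 and BCL2 lists, and SLC7A11 is in several. The integrated stress response acts through the factor ATF4 when amino acids, haem or folding capacity run short. Of its 26 genes, 2 rose, 14 fell and 10 did neither, with a median of -0.85. DDIT4, an inhibitor of mTORC1, was at 1317, 1196 and 1153 FPKM in the controls and 57.5, 53.1 and 63.2 FPKM in the combined libraries (log2 difference -4.38, SE 0.20, adjusted p = 1.17e-07). CHAC1, which degrades glutathione, was at 35.6, 35.6 and 42.6 FPKM in the controls and 2.92, 1.07 and 1.52 FPKM in the combined libraries (log2 difference -3.83, SE 0.24, adjusted p = 7.25e-07). DDIT3 and PPP1R15A, the latter a phosphatase subunit that ends the response, fell (log2 differences -3.34 and -3.29). The 2 members that rose were NUPR1, a stress-induced chromatin protein (0.915, 1.55 and 0.929 FPKM in the controls and 4.26, 4.07 and 7.65 FPKM in the combined libraries, log2 difference 1.54, SE 0.38, adjusted p = 0.0117), and CBS, an enzyme of cysteine synthesis (0.79). NUPR1 lost its call with a pseudocount of 0.1 FPKM (adjusted p = 0.0896) and CBS without combined replicate 3 (0.0684), where the list held 1 higher and 15 lower.

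Of the chaperone genes called, most were lower. HSPA6, a strictly inducible HSP70, was at 81.6, 92.4 and 80.0 FPKM in the controls and 4.22, 2.01 and 2.87 FPKM in the combined libraries (log2 difference -4.44, SE 0.38, adjusted p = 8.13e-06); with OTA alone it was at 19.3 ± 2.91 FPKM and with CW14 alone at 13.6 ± 8.62, each higher than in the combined group (adjusted p = 0.00414 and 0.0059). Of 24 cytosolic heat shock genes, 1 rose, 13 fell and 10 did neither (median -0.53). The inducible co-chaperone DNAJB1 and BAG3, a co-chaperone of selective autophagy, fell (-3.27 and -1.60). HSPA1A and HSPA1B are almost the same in sequence, so their separate values (-2.25 and -2.09) are uncertain. Of the constitutive forms, HSPA8 fell (1985, 1688 and 1657 FPKM in the controls, 872, 845 and 770.0 in the combined group), while HSP90AB1 was at a difference of -0.21 (95% interval -0.52 to 0.09). The unfolded protein response list (27 genes) was split: 1 rose, 9 fell and 17 did neither (median -0.33). DNAJB9, HERPUD1 and the main luminal chaperone HSPA5 fell (-2.84, -2.54 and -1.60).

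The p53-responsive and growth arrest genes were lower or not called. Of 33 tested, 0 rose, 19 fell and 14 did neither, with a median of -0.89. GADD45B, a growth arrest gene, was at 121, 132 and 98.5 FPKM in the controls and 7.29, 5.97 and 12.4 FPKM in the combined libraries (log2 difference -3.68, SE 0.25, adjusted p = 1.30e-06). PLK2, a polo-like kinase, was at 36.3, 34.5 and 36.4 FPKM in the controls and 1.37, 2.44 and 1.42 FPKM in the combined libraries, and GDF15, a secreted stress cytokine, fell (-2.77). CDKN1A, which encodes the cell cycle inhibitor p21, and MDM2, a ubiquitin ligase, fell (-1.33 and -1.51). Of 26 BCL2 family and caspase genes, 0 rose, 10 fell and 16 did neither (median -0.39). Those that fell include MCL1, which blocks cell death (406, 307 and 322 FPKM in the controls and 48.9, 47.5 and 29.6 FPKM in the combined libraries, log2 difference -3.03, SE 0.21, adjusted p = 1.30e-06), and PMAIP1 and BBC3, which promote it (-3.23 and -2.30).

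Feedback genes of the BMP and TGF-beta pathways and targets of YAP held falls as well. Of 16 ID, SMAD and BMP feedback genes, 1 rose, 10 fell and 5 did neither (median -1.31). ID1, an inhibitor of bHLH factors, was at 327, 327 and 292 FPKM in the controls and 43.8, 35.5 and 46.9 FPKM in the combined libraries (log2 difference -2.88, SE 0.22, adjusted p = 3.29e-06), and SMAD7, the inhibitor of TGF-beta signalling, fell (-2.35). The member that rose was TGFBI, a matrix protein (0.56). Among actomyosin genes and targets of the mechanosensitive factor YAP, 2 rose, 11 fell and 14 did neither (median -0.05). The YAP targets CTGF, CYR61 and ANKRD1 fell (-3.08, -2.92 and -2.56). The myosin genes MYL9 and MYH9 rose (1.35 and 0.47), and ACTB, cytoplasmic actin, was at 0.08 (95% interval -0.18 to 0.34). Of 7 metallothionein and zinc genes, 0 rose and 4 fell. Their controls were uneven: MT2A was at 802, 196 and 112 FPKM in the controls and 21.5, 23.5 and 50.2 FPKM in the combined libraries.

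**Figure D3:**
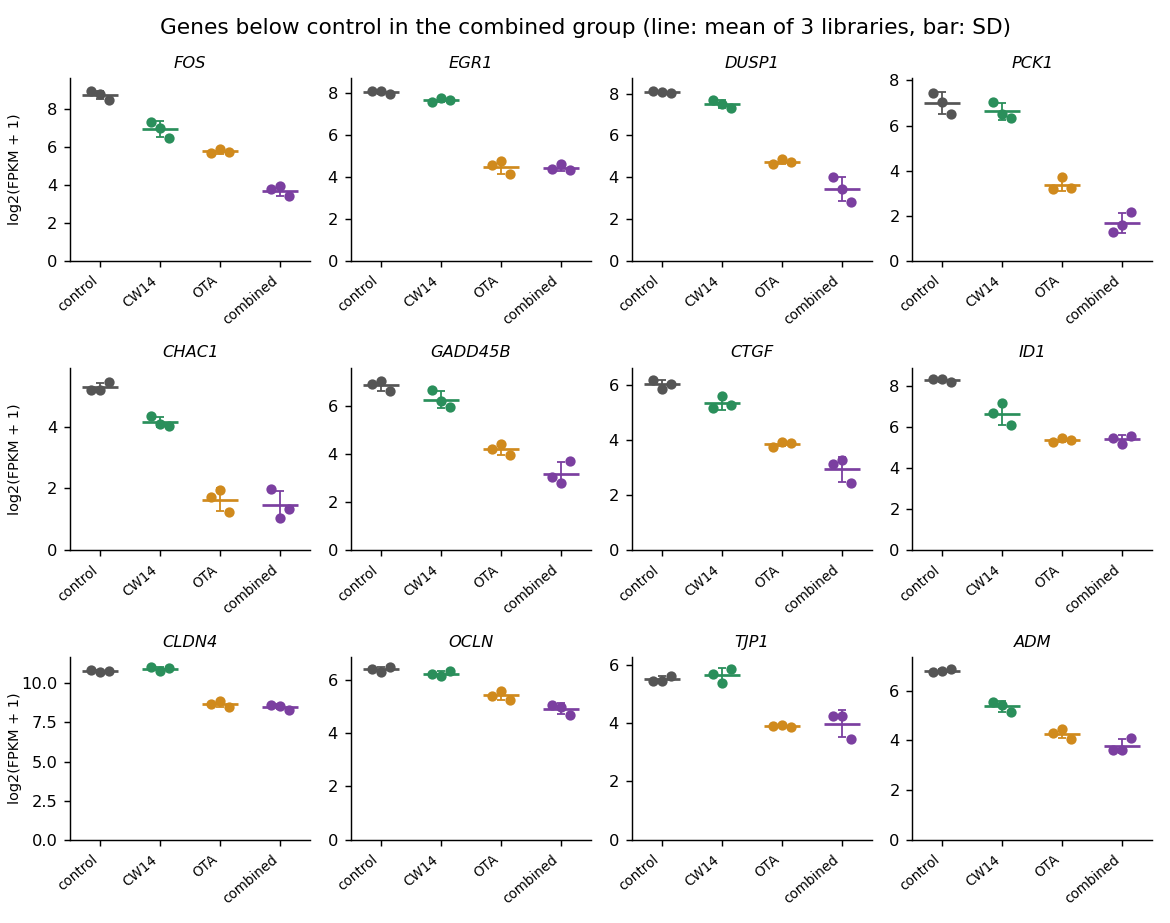
Each panel is 1 gene, with log2(FPKM + 1) on the y axis and the 4 groups on the x axis; points are libraries, lines are means of 3 and bars are SD. In every panel the 3 combined libraries lie below the 3 controls, as in 22.8% of all genes. For FOS, DUSP1, PCK1, CHAC1 and GADD45B this was a condition of their selection among the 15 largest falls.

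Most chemokines, which were high with CW14 alone, were at or below their untreated level in the combined group. CXCL2, a neutrophil chemokine (chromosome 4, 74962752 to 74964997), was at 50.6, 43.0 and 42.9 FPKM in the controls and 21.4, 18.1 and 5.39 FPKM in the combined libraries (log2 difference -1.73, SE 0.43, adjusted p = 0.0113), against 341 ± 134 FPKM with CW14 alone. CCL20, which recruits lymphocytes and dendritic cells, was at 194, 120.0 and 87.9 FPKM in the controls and 21.9, 16.3 and 20.3 FPKM in the combined libraries (log2 difference -2.65, SE 0.34, adjusted p = 0.000214), against 413 ± 210.0 with CW14 alone. Every combined library was below every control for both genes. CXCL1 and CXCL3 fell (-1.92 and -2.07). CXCL8, the chemokine interleukin-8, was at 3.51, 4.36 and 2.43 FPKM in the controls and 7.08, 2.90 and 0.550 FPKM in the combined libraries and was not called (difference -0.25, 95% interval -1.65 to 1.14); its combined libraries lay on both sides of the controls, the difference was 0.365 without combined replicate 3, and against CW14 alone (93.2 ± 55.9 FPKM) they were lower (adjusted p = 0.000448). Of the 9 chemokines tested, 1 rose, 5 fell and 3 did neither against control (median -0.65), and 8 were lower than with CW14 alone, where 32.3% of all genes were called and 17.5% were lower.

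CCL5, a chemokine for T cells, was the one that rose. It was at 0, 0.122 and 0 FPKM in the controls and 0.896, 2.00 and 4.85 FPKM in the combined libraries (log2 difference 1.63, SE 0.35, adjusted p = 0.00524), higher in every combined library than in any control, and it was higher than with OTA alone (adjusted p = 0.0137). With CW14 alone it was at 3.03 ± 1.09 FPKM, and the difference of the combined group from that was -0.29 (95% interval -1.05 to 0.47). TNF, the inflammatory cytokine, was at 0.929, 0.755 and 1.02 FPKM in the controls and 1.24, 1.38 and 0.842 FPKM in the combined libraries and was not called (95% interval -0.39 to 0.73), while with CW14 alone it was at 14.6 ± 4.69 FPKM. CSF2 was listed at 0 in all controls and all combined libraries, and CW14 alone gave 6.02 ± 2.68 FPKM. Of 16 TNF, interleukin and colony-stimulating factor genes, 0 rose, 7 fell and 9 did neither (12.0% higher and 16.8% lower over all genes). Those that fell include HBEGF, EREG and AREG, ligands of the EGF receptor (-2.48, -1.75 and -1.08). LIF (-1.74), a cytokine of the interleukin-6 family, fell too. Against CW14 alone, 13 of the 16 were lower (17.5% over all genes). The filter was a mean over all 12 libraries, so CSF2 entered the list through groups other than the 2 compared. For any such gene, in this list or the chemokine list, being lower than with CW14 alone is no separate result. CCL5, near 0 in the controls, passed the filter only through groups where it was higher, the combined group among them. A gene so low in the controls could not have been tested without a higher group, so the rise of CCL5 is not independent of the filter.

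The NF-kB genes that were called lay below control, and few bacterial sensing genes were called. Of 19 NF-kB subunits and inhibitors, 0 rose, 9 fell and 10 did neither (median -0.50; 0 higher and 12 lower without combined replicate 3). NFKBIA, the NF-kB inhibitor, was at 228, 239 and 179 FPKM in the controls and 36.6, 27.2 and 44.2 FPKM in the combined libraries (log2 difference -2.56, SE 0.21, adjusted p = 6.42e-06). TNFAIP3 and NFKBIZ, other feedback regulators, fell (-1.76 and -1.90). The subunit gene NFKB1 was at a difference of 0.09 (95% interval -0.54 to 0.72). Of 15 bacterial sensing and antimicrobial genes, 1 rose, 4 fell and 10 did neither (12.0% higher and 16.8% lower over all genes). Without combined replicate 3, 2 were higher and 4 lower, so this short list shows no clear direction. The adaptors TICAM1 and RIPK2 fell (-1.27 and -0.94), and the kinase IRAK1 rose by 0.47.

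Tight junction genes fell more often than they rose. Of 27 tested, 1 rose, 11 fell and 15 did neither, with a median of -0.54 (12.0% higher and 16.8% lower over all genes). For 16 of them the interval lay within 2-fold of control, a share of 59.3% against 60.0% over all genes. CLDN4, a sealing claudin, was at 1839, 1726 and 1745 FPKM in the controls and 398, 378 and 316 FPKM in the combined libraries (log2 difference -2.29, SE 0.14, adjusted p = 7.25e-07); its deposited locus (chromosome 7, 72476601 to 74336166) spans neighbouring genes. OCLN, which encodes occludin (chromosome 5, 68788117 to 68853931), was at 84.3, 77.7 and 88.3 FPKM in the controls and 32.4, 30.8 and 24.6 FPKM in the combined libraries (log2 difference -1.49, SE 0.14, adjusted p = 1.58e-05), lower than with OTA alone (41.8 ± 5.24 FPKM, difference -0.50, adjusted p = 0.0312). TJP1, the scaffold ZO-1 (chromosome 15, 29991569 to 30261002), was at 42.4, 42.0 and 48.4 FPKM in the controls and 18.1, 17.8 and 9.86 FPKM in the combined libraries (log2 difference -1.52, SE 0.21, adjusted p = 0.000286). For all 3 genes each combined library was below each control. TJP1 was at 13.9 ± 0.269 FPKM with OTA alone (difference 0.08, 95% interval -0.37 to 0.53).

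Other junction genes were mixed. PARD6B, a polarity protein, and MARVELD3, a membrane protein of the junction, fell (-2.37 and -0.91). F11R, the junctional adhesion molecule A, and MYLK, the myosin light chain kinase that opens junctions, fell (-0.42 and -0.54); F11R lost its call with quantile normalization (adjusted p = 0.0681) and MYLK with upper-quartile scaling (adjusted p = 0.0600), and both without control replicate 1 (0.0645 and 0.0975). The claudins CLDN1, CLDN2 and CLDN3 were not called, at -0.60, 0.34 and -0.54, although CLDN1 was lower than with OTA alone (difference -0.98, adjusted p = 0.0258). CLDN3 was at 115, 126 and 137 FPKM in the controls and 77.0, 64.5 and 127 FPKM in the combined libraries, with combined replicate 3 within the range of the controls and the others below it. The scaffold MAGI1 was the member that rose (0.38), a call lost without any 1 of the controls (adjusted p = 0.0717 to 0.110) or with these 2 groups fitted alone (0.144). Of 19 adherens junction and desmosome genes, 0 rose, 5 fell and 14 did neither (12.0% higher and 16.8% lower over all genes). Of these 19, 17 were within 2-fold (60.0% over all genes). The desmosomal cadherins DSC2 and DSG2 fell (-0.98 and -0.74). CDH1, E-cadherin, was at 290.1, 277 and 294 FPKM in the controls and 264, 261 and 204 FPKM in the combined libraries and was not called (95% interval -0.52 to 0.02).

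The apical surface was mixed. Of 10 mucin, trefoil and goblet genes, 0 rose, 3 fell and 7 did neither: the membrane mucins MUC13, MUC17 and MUC3A fell (-1.71, -1.48 and -0.64). MUC13 was at 271, 200.2 and 225 FPKM in the controls and 69.5, 63.3 and 77.0 FPKM in the combined libraries, below its level with OTA alone (159 ± 11.4 FPKM, adjusted p = 0.00201). Of 22 brush border genes, 3 rose, 4 fell and 15 did neither, near the shares over all genes (12.0% higher and 16.8% lower). EPS8, an actin-bundling protein of microvilli, fell (-1.56), while the bundler villin (VIL1) rose by 0.43. Without combined replicate 3 the list held 3 higher and 7 lower. Of 27 nutrient and ion transporters, 1 rose, 5 fell and 21 did neither (12.0% higher and 16.8% lower over all genes). Those that fell include SLC38A2, a neutral amino acid carrier (-2.77), and SLC7A11, the cystine carrier (-1.91).

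Enterocyte transcription factors were called in both directions. Of 24, 2 rose, 9 fell and 13 did neither (median -0.34). ELF3, an epithelial differentiation factor, was at 240.4, 256 and 214 FPKM in the controls and 51.3, 48.5 and 72.6 FPKM in the combined libraries (log2 difference -2.04, SE 0.18, adjusted p = 1.14e-05), and ISX and KLF5 fell (-1.43 and -1.40). CDX2, which specifies intestinal identity, rose from 55.9, 62.6 and 51.7 FPKM in the controls to 74.6, 102 and 89.6 in the combined group (log2 difference 0.63, SE 0.15, adjusted p = 0.00869). Against OTA alone, 8 of the 24 were higher (7.79% over all genes) and 1 was lower. Those higher include HNF4A, the hepatocyte nuclear factor of enterocytes, which was at 160.4, 140.3 and 146 FPKM in the controls and 153, 163 and 145 FPKM in the combined libraries, almost equal in the 2 groups (95% interval -0.19 to 0.29), and 110.2 ± 6.04 FPKM with OTA alone.

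**Figure D4:**
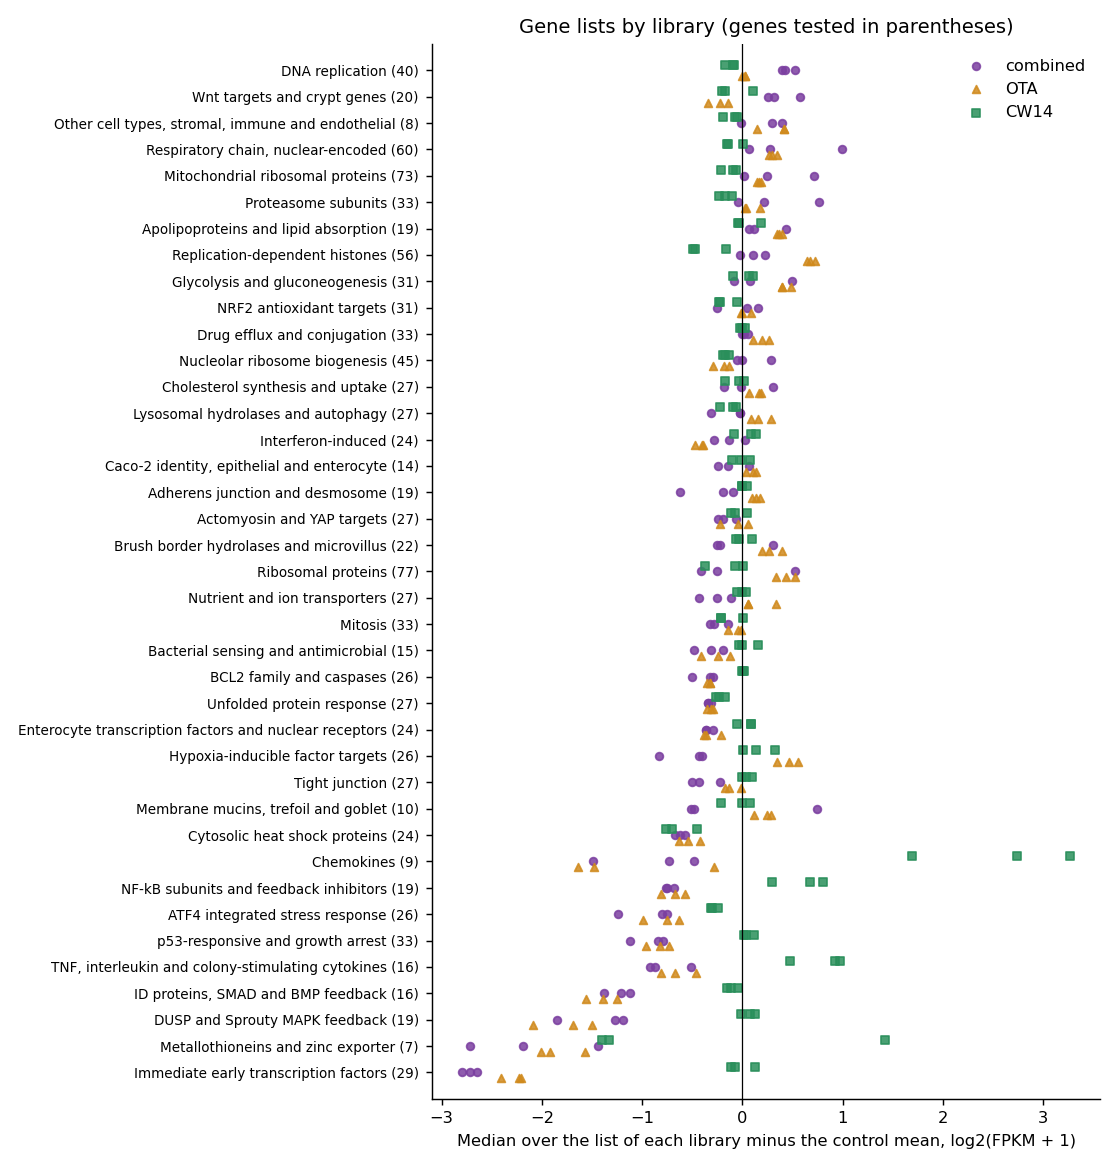
Each row is 1 gene list; each point is 1 library, placed at the median over the list of its log2(FPKM + 1) minus the control mean, for combined (circles), OTA (triangles) and CW14 (squares) libraries. The combined points of the immediate early list lie at -2.64 to -2.80, those of the metallothionein list reach -2.72, and the DNA replication list lies at 0.40 to 0.52.

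DNA replication genes that were called were all higher in the combined group. Of 40 tested, 17 rose, 0 fell and 23 did neither, with a median of 0.45 (12.0% higher and 16.8% lower over all genes). Of the 40, 24 were within 2-fold of control (60.0% over all genes). Per library the median was 0.40, 0.43 and 0.52, and without combined replicate 3 the list again held 17 higher and 0 lower. Against OTA alone 19 of the 40 were higher and 0 lower (7.79% and 8.22% over all genes), and against CW14 alone 22 and 0 (14.8% and 17.5%). MCM2, a subunit of the replicative helicase (chromosome 3, 127317198 to 127341278), was at 10.3, 12.2 and 13.5 FPKM in the controls and 27.0, 23.1 and 33.7 FPKM in the combined libraries (log2 difference 1.15, SE 0.18, adjusted p = 0.000707). POLA2, of the primase-polymerase complex, was at 1.84, 2.89 and 2.57 FPKM in the controls and 4.44, 5.65 and 8.30 FPKM in the combined libraries (log2 difference 1.03, SE 0.22, adjusted p = 0.00556). Both genes were higher in each combined library than in each control. RFC2, the clamp loader subunit, GINS2 and MCM3, both of the helicase, had differences of 1.02, 1.01 and 1.01, and TK1, an enzyme of nucleotide supply, 0.79.

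Mitotic genes did not rise with them. Of 33, 0 rose, 8 fell and 25 did neither (median -0.20). CENPA, the centromeric histone, and the mitotic kinases AURKA and CDK1 fell (-1.21, -0.77 and -0.68). The proliferation marker MKI67 was at 38.8, 38.0 and 40.5 FPKM in the controls and 45.1, 50.8 and 31.1 FPKM in the combined libraries (difference 0.08, 95% interval -0.29 to 0.46). Of 56 replication-dependent histone genes, 8 rose, 5 fell and 43 did neither, with a median of 0.09, against 0.73 in OTA against control. HIST1H2AL rose from 3.19, 1.54 and 1.77 to 24.6, 15.3 and 22.7 FPKM (log2 difference 2.80, SE 0.26, adjusted p = 1.61e-05). HIST2H3A and HIST1H2AJ rose by 2.63 and 2.23, and HIST1H4H and HIST1H2AC fell (-1.75 and -1.51). Near-identical histone copies can share fragments, and 9 of the 56 were lower than with OTA alone (8.22% over all genes).

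Crypt and Wnt target genes held rises and falls. Of 20, 6 rose, 3 fell and 11 did neither (median 0.33). ASCL2, the stem cell factor of the crypt, was at 17.0, 22.3 and 21.8 FPKM in the controls and 41.0, 35.4 and 47.7 FPKM in the combined libraries (log2 difference 0.99, SE 0.17, adjusted p = 0.00132). PROM1, a membrane protein of progenitor cells, rose by 1.28, and SMOC2, a matrix protein, by 1.41. SOX9 and HES1, transcription factors of progenitors, fell (-2.17 and -2.10). AXIN2, the feedback inhibitor of Wnt signalling, was not called after adjustment (-0.94, 95% interval -1.70 to -0.18). Against OTA alone 6 of the 20 were higher and 0 lower (7.79% and 8.22% over all genes).

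Lipid and interferon-induced lists held calls in both directions. The apolipoprotein and lipid absorption list (19 genes) held both directions: 6 rose, 2 fell and 11 did neither (median 0.16). APOA1, the main protein of HDL, was at 4064, 3821 and 3846 FPKM in the controls and 7219, 5364 and 19185 FPKM in the combined libraries (log2 difference 1.21, SE 0.34, adjusted p = 0.0212), all above the controls and highest in combined replicate 3; without that library its difference was 0.67. APOH and DGAT2 rose by 1.02 and 0.98. Of 24 interferon-induced genes, 2 rose, 8 fell and 14 did neither. IFI6 was at 4.72, 9.60 and 4.86 FPKM in the controls and 24.5, 21.0 and 50.04 FPKM in the combined libraries (log2 difference 2.11, SE 0.34, adjusted p = 0.00102), above OTA alone (7.29 ± 2.30 FPKM, adjusted p = 0.00634) and CW14 alone (6.59 ± 1.97 FPKM, adjusted p = 0.00123). IFITM3, an antiviral membrane protein, was at 0.885, 3.67 and 2.93 FPKM in the controls and 22.6, 7.87 and 12.9 FPKM in the combined libraries (log2 difference 2.13, SE 0.59, adjusted p = 0.0192), a call lost without control replicate 1 (adjusted p = 0.0845), without combined replicate 1 (0.0662) or with a pseudocount of 0.1 FPKM (0.105). IFIT2 and OASL, also interferon-induced, fell (-1.67 and -1.12), so the list did not move one way.

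The other large rises were in low-expressed genes. The 5 genes more than 2-fold higher were HIST1H2AL, KIAA1683, WBSCR27, LOC100129931 and HOXA7, with a median control level of 2.03 FPKM; HOXA7 was named after its values were seen. KIAA1683 was at 0.828, 0.704 and 1.73 FPKM in the controls and 7.95, 7.90 and 9.48 FPKM in the combined libraries (log2 difference 2.21, SE 0.28, adjusted p = 0.000198), and WBSCR27 at 2.18, 2.42 and 2.40 FPKM in the controls and 14.8, 10.9 and 14.9 FPKM in the combined libraries. HOXA7, a homeobox factor, was at 1.51, 2.44 and 2.13 FPKM in the controls and 9.86, 8.64 and 9.84 FPKM in the combined libraries, above OTA alone (3.00 ± 0.577 FPKM, adjusted p = 0.00207). All of these combined libraries were above all controls, which for KIAA1683 and WBSCR27 was a condition of their selection among the 15 largest rises. DRD2, a dopamine receptor, was at 2.98, 6.20 and 10.3 FPKM in the controls and 27.0, 22.5 and 35.3 FPKM in the combined libraries. Among the rest of the 15 largest rises, LRRC26, FAM71A, LOC221946 and LOC105376360 rose to between 2.99 and 23.03 FPKM, and the antisense genes RUSC1-AS1 and IBA57-AS1, which cannot be told from their partner strands here, were at 4.79, 7.33 and 11.4 and 1.36, 2.60 and 5.35 FPKM. IBA57-AS1 was listed at 0 in all 3 controls, as was LOC105376360 in 1. IBA57-AS1 therefore passed the filter only through groups other than the control, so its rise is not independent of the filter.

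Mitochondrial lists lay highest in combined replicate 3. The respiratory chain list (60 nuclear genes) was uneven: 16 rose, 2 fell and 42 did neither (median 0.41), and per library the median was 0.28, 0.07 and 1.00. Without replicate 3 the median was 0.11, with 14 higher and 3 lower. NDUFS8 and NDUFB10, of complex I, rose by 1.19 and 1.11, and CYCS, cytochrome c, fell (-0.60). Of 73 mitochondrial ribosomal proteins, 16 rose, 1 fell and 56 did neither, and the median of 0.38 became 0.10 without replicate 3. Of 33 proteasome genes, 3 rose, 1 fell and 29 did neither, with a median of 0.39 that became 0.13. The high GC content of the transcripts enriched in that library and its low depth moved with these values, and their part was not tested.

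**Figure D5:**
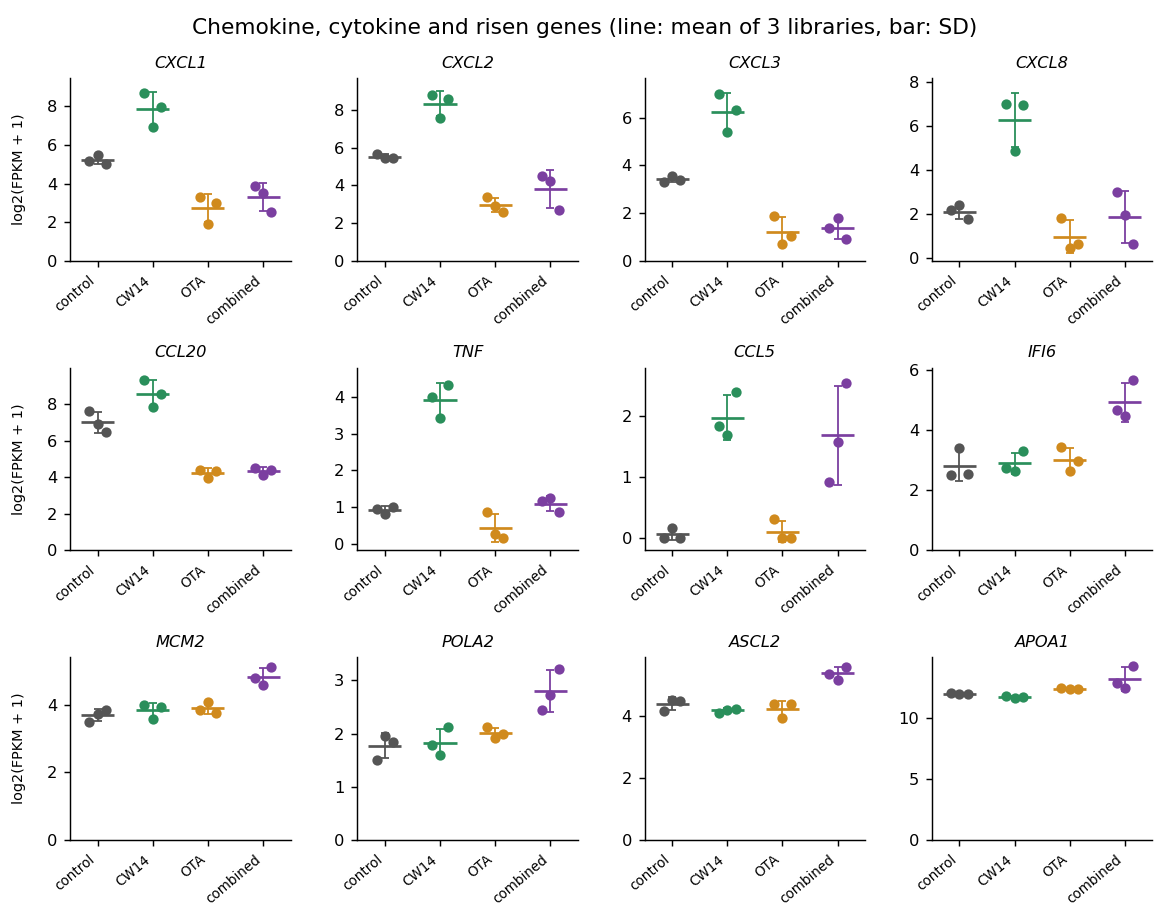
Each panel is 1 gene, with log2(FPKM + 1) on the y axis and the 4 groups on the x axis; points are libraries, lines are means of 3 and bars are SD. The CXC chemokines, CCL20 and TNF are high with CW14 alone and low in the combined group, whereas the combined libraries of CCL5, IFI6, MCM2, POLA2, ASCL2 and APOA1 all lie above the controls. That separation held in 19.1% of all genes, and for IFI6 it was a condition of selection among the 15 largest rises.

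The hypoxia list, whose median was above control with OTA alone, was below it in the combined group. Of 26 targets of hypoxia-inducible factor, 1 rose, 11 fell and 14 did neither (median -0.50), whereas their median in OTA against control, which shares the controls, was 0.47. Tested directly, 12 of the 26 were lower than with OTA alone (8.22% over all genes) and 0 higher. CA9, a carbonic anhydrase, was at 21.7, 16.0 and 14.7 FPKM in the controls and 7.40, 7.49 and 4.26 FPKM in the combined libraries (log2 difference -1.34, SE 0.20, adjusted p = 0.000592) and at 25.2 ± 2.94 FPKM with OTA alone (difference -1.85, adjusted p = 0.00158). ADM, a vasodilator peptide, BHLHE40, a clock-linked repressor, and VEGFA, the angiogenic factor, fell (-3.02, -2.67 and -1.29). HIF1A itself was at 16.8, 18.5 and 12.2 FPKM in the controls and 17.9, 19.9 and 1.51 FPKM in the combined libraries and was not called (95% interval -2.06 to 0.59); the low value is combined replicate 3, without which the difference was 0.26.

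On group means, ribosomal protein genes stood near control, but the combined libraries lay on both sides of it. Of 77, 0 rose, 3 fell and 74 did neither (median -0.04), and 58 were within 2-fold (60.0% over all genes). Their median was 0.44 in OTA against control, and 18 of the 77 were lower than with OTA alone and 0 higher (8.22% and 7.79% over all genes). The combined libraries were split, at medians of -0.26, -0.41 and 0.52, and without replicate 3 the list held 0 higher and 19 lower with a median of -0.33. RPL28, RPL30 and RPL12 fell (-1.01, -0.74 and -0.64); RPL12 lost its call under all 3 scalings tried (adjusted p = 0.0540 to 0.0584). Of 45 nucleolar genes of ribosome assembly, 7 rose, 4 fell and 34 did neither (12.0% higher and 16.8% lower over all genes), and 14 were higher than with OTA alone (7.79% over all genes). POLR1A, the catalytic subunit of RNA polymerase I, rose by 1.00, and RRN3, its initiation factor, fell (-1.42).

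Detoxification and antioxidant lists held calls in both directions. Of 33 drug efflux and conjugation genes, 1 rose, 2 fell and 30 did neither, and 24 were within 2-fold (60.0% over all genes). AHR, the receptor for aromatic toxins, and CYP3A5, a drug oxidase, fell (-1.71 and -1.51), while the sulfotransferase SULT2A1 rose by 0.97. The efflux pump ABCB1 was at 5.75, 5.08 and 5.32 FPKM in the controls and 5.57, 4.69 and 3.17 FPKM in the combined libraries (difference -0.25, 95% interval -0.67 to 0.18). Of 31 NRF2 targets and regulators, 3 rose, 8 fell and 20 did neither (12.0% higher and 16.8% lower over all genes). NFE2L2, which encodes NRF2, was at 241, 178 and 198 FPKM in the controls and 52.0, 59.8 and 41.2 FPKM in the combined libraries (adjusted p = 1.13e-05). TXNRD1, thioredoxin reductase, fell (-1.35), while EPHX1, an epoxide hydrolase, rose by 1.12. HMOX1, haem oxygenase, was at 16.5, 12.8 and 21.2 FPKM in the controls and 20.4, 12.1 and 19.9 FPKM in the combined libraries (difference 0.04, 95% interval -0.45 to 0.54).

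Lipid and degradation pathways had calls in both directions. Of 27 cholesterol genes, 4 rose, 8 fell and 15 did neither (median -0.09). INSIG1, the sterol sensor, fell (-1.42). TM7SF2 and NSDHL, later enzymes of the pathway, rose by 1.55 and 0.89. Of 27 lysosomal and autophagy genes, 4 rose, 9 fell and 14 did neither. The genes that fell include the autophagosome proteins GABARAPL1 and MAP1LC3B (-1.63 and -1.36) and those that rose the hydrolases CTSZ and HEXA (0.97 and 0.44).

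The genes shown to lie closest to control, among those at 50 FPKM or more, had intervals within 0.29 of 0 on the log2 scale. They were TSPAN3, MRGBP, PFDN1, GRB2, MRPS35, CNOT11, APH1A, APLP2, HNF4A and TMED4. GRB2, the adaptor that links receptors to RAS, was at 81.8, 90.8 and 98.5 FPKM in the controls and 91.1, 87.5 and 89.6 FPKM in the combined libraries (difference -0.01). APLP2, a relative of the amyloid precursor, was at 697, 639 and 671 FPKM in the controls and 676, 635 and 625 FPKM in the combined libraries (difference -0.05), and PFDN1, of the prefoldin chaperone, at 102, 103 and 115 FPKM in the controls and 104, 108 and 113 FPKM in the combined libraries. In each of these genes the combined libraries lay within or next to the range of the controls, which follows from how they were chosen and is no separate result.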

How the data were processed

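RNA of 12 Caco-2 libraries, 3 per group, was sequenced, and titles gave each library its group and replicate number. The deposited values are FPKM per gene, as the authors computed them; the submitters' processing notes name hg19, Cufflinks 2.2.1 with Cuffnorm and Cuffdiff, TopHat2 2.0.13 and cutadapt 1.10, and the scaling between libraries is not given in the sources used here. Libraries were not stated to keep strand, so antisense pairs cannot be separated, and near-identical genes can share fragments. Small RNA genes (63 tested) and entries whose symbol had turned into a date (19 tested) are not named. Values of 0 may be failed estimates. The table gives no counts; relative depth was read from the steps of values under 0.3 FPKM (0.471 to 1.60 over the 12 libraries).

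With limma 3.58.1 in R 4.3.3, log2(FPKM + 1) was fitted by group in all 12 libraries for 12928 of 26125 entries, those whose mean reached 1 FPKM. The variance trend followed intensity and 8 degrees of freedom remained. Tests were two-sided, with Benjamini-Hochberg adjustment across the genes tested, and limma treat tested for more than 2-fold. The pipeline was tested on simulated data. Comparisons against control share the control libraries. The members and gene lists were chosen with earlier results of these data known. Genes named were the 15 largest rises and 15 largest falls among called genes with no overlap between groups, up to 6 called members with the largest difference in each list (other members where a list needed them, chosen after their values were seen), the 10 genes with the narrowest interval around 0 at a control mean of at least 50 FPKM, and the 9 barrier genes CLDN1, CLDN2, CLDN3, CLDN4, OCLN, TJP1, F11R, CDH1 and MYLK. RefSeq promoter windows were matched by symbol. Some genes that this rule selects are not reported here.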

Additional observations from a re-analysis of the deposited data

How the results depend on the processing

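In combined against control, 3729 calls became 1596 when only these groups were fitted, 8686 with array weights and 2265 without control replicate 1; over all left-out libraries the count ranged from 2265 to 4776. The 198 genes more than 2-fold from control became 114, 498 and 125 under the same 3 settings, with a left-out range of 125 to 202. The 7762 genes within 2-fold became 14390 with no filter, which tests more low genes, 6171 with a pseudocount of 0.1 FPKM, 6559 with only these groups fitted and 6652 to 9230 over left-out libraries. Against OTA, 2070 calls became 70 with only these groups fitted and 7703 with array weights; they became 945, 653 and 753 without OTA replicates 1, 2 and 3 and 3388 without combined replicate 2, a range of 653 to 3388. Against CW14, 4179 calls became 1521 and 7991 under the same settings, 2780 without CW14 replicate 2 (range 2780 to 5297), and 2744 with only these groups fitted and combined replicate 3 left out. That last setting was chosen after seeing the data. It gave 3586 calls against control and 2162 against OTA. The array weights gave 32.2 to combined replicate 1 and 0.266 and 0.0421 to the others, so that fit rests on 1 combined library.

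With replicate number as a block, the calls were 3526, 1807 and 3952 against control, OTA and CW14, the treat count was 195 and the count within 2-fold 7670. Same-numbered libraries did not deviate together (correlations of residuals with the combined group from -0.088 to 0.061), so the numbers were not taken as pairs. Of 148 called genes named in the text (the markers CD14, VIM, LUM, KRT20 and CDH17 not counted), 114 kept call and direction in each of the 23 alternatives that tested them. The call was lost in 1 or more alternatives by 34, and 0 changed direction. The 15 largest falls kept their call; IFITM3 and LRRC26 of the 15 largest rises did not. Under 1 or more of the 3 scalings, F11R, MYLK, RPL12 and RPL30 lost it, and with the replicate block MAGI1 did (adjusted p = 0.0590). With only the 2 compared groups fitted, 28 of these genes lost it, CXCL2 (adjusted p = 0.0525) and CDX2 (0.0542) among them. Without control replicates 1, 2 and 3, 24, 15 and 12 of these genes lost it, and without combined replicates 1, 2 and 3, 9, 5 and 3. Some genes named that were not called changed sign: without combined replicate 3, with or without the other groups in the fit, CXCL8 was at 0.365, HIF1A at 0.26, HMOX1 at -0.0625 and NFKB1 at -0.15. Over left-out libraries, these 4 ranged from -0.83 to 0.365, from -1.27 to 0.26, from -0.13 to 0.27 and from -0.15 to 0.41, and MKI67 from -0.0614 to 0.28. With array weights, CXCL8 was at 0.78 (adjusted p = 0.0373), HIF1A at 0.11 and ABCB1 at 0.0707. The cause of these shifts was not tested. With 3 libraries per group and combined replicate 3 shallow and apart, differences under about 2-fold were often not resolved: the median standard error was 0.21 on the log2 scale.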
